A study of Homo sapiens with 18 samples.

Results

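Peaks of open chromatin at the loci of the 4 MEF2 genes are described here, in Raji cells sorted by GFP level. A peak belonged to MEF2A, MEF2B, MEF2C or MEF2D if that gene was the RefSeq protein-coding gene whose span on GRCh38 contained the peak centre, or else the nearest such gene within 50 kb. This gave 49 peaks of 71318 in all, with 10 at MEF2A, 3 at MEF2B, 27 at MEF2C and 9 at MEF2D. All peaks had the same width, so that levels can be compared between them. The assay was Omni-ATAC-seq, a form of ATAC-seq in which reads come from DNA that a transposase could reach and cut. The groups were GFP low at 24, 48 and 72 h and GFP high at 24, 48 and 72 h, with 3 labelled replicates of each. All 18 samples came from Raji, a line grown from a Burkitt lymphoma, and all carry the genotype label Smarca4+/+. The series is about loss of SMARCA4, the motor protein (BRG1) of BAF complexes, which move nucleosomes, and uses an auxin-inducible degron to remove it. It is not stated in the labels what GFP reports, which GFP level goes with loss of the protein, or whether more than 1 clone was used, so the groups are described by GFP level alone.

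The MEF2 (myocyte enhancer factor 2) proteins are transcription factors of the MADS-box family that bind an A/T-rich DNA sequence as dimers. Class IIa histone deacetylases hold them in a repressive state, and calcium-dependent kinases, the phosphatase calcineurin and the MAP kinases p38 and ERK5 favour activation. In B cells, MEF2C is known from mice as a factor for proliferation after stimulation of the antigen receptor. MEF2B acts in germinal centre B cells, where BCL6 is among its targets, and is mutated in a share of germinal centre lymphomas. MEF2D is a partner in fusion genes of B-cell acute leukaemia, and MEF2A is expressed in many tissues.

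Counts of the 3 columns of a GFP level and time differed from each other by 1.78 to 1.81 times the counting variance in all 18 such pairs of columns, against 4.46 to 7.22 times between GFP levels at the same time. They were therefore summed to 1 library, which gave 6 libraries of 22908652 to 29790483 counts. Nothing in the labels says that the samples came from separate cultures, so p-values measure only the spread between these libraries, which may be technical. With 1 library per GFP level and time, that spread is the variation of the GFP difference over the times. A true change of that difference with time counts in it. Levels are CPM, counts scaled to library size by TMM, and the 3 libraries of a GFP level are its 3 times, so an SD over them includes any change with time. Of the B-cell markers 9 of 10 genes had a peak and 8 had one within 1 kb of a gene end. The same numbers were 9 and 6 of 10 for T-cell markers, 7 and 1 of 9 for myeloid markers, where CD14 and MPO had no peak, and 5 and 2 of 6 for epithelial and stromal markers. The summed level of the T-cell marker peaks was 401.3 to 420.9 CPM in GFP low libraries and 520.0 to 529.3 CPM in GFP high libraries, and 21 of its 40 peaks were called lower. Those of the other marker lists overlapped between GFP levels. B-cell markers had 1011.7 to 1066.4 CPM in GFP low and 1038.8 to 1096.5 CPM in GFP high, with 15 of 74 peaks called lower and 1 higher. Myeloid markers had 97.5 to 120.9 CPM in GFP low and 118.3 to 123.9 CPM in GFP high, with 7 of 15 peaks called lower and 1 higher. Epithelial and stromal markers had 108.0 to 119.3 CPM in GFP low and 111.5 to 126.7 CPM in GFP high, with 4 of 17 lower and 2 higher. Over all peaks 25.4% were called lower and 13.4% higher. The part of these differences in the results at the MEF2 loci was not tested.

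RefSeq (GRCh38.p14) lists 3 starts of transcription for MEF2A, and a peak covered 3 of them. A peak also covered 1 of 1 for MEF2B, 3 of 7 for MEF2C and 0 of 1 for MEF2D, whose gene end upstream of that start does lie in a peak. The 250 bases before 4 of the 7 starts in peaks are shown here as examples, at least 1 for each gene with a start in a peak. Capitals mark matches on either strand to the motifs searched, and positions count back from the base before the start, which is -1.
MEF2A, chr15:99565167-99565416, plus strand: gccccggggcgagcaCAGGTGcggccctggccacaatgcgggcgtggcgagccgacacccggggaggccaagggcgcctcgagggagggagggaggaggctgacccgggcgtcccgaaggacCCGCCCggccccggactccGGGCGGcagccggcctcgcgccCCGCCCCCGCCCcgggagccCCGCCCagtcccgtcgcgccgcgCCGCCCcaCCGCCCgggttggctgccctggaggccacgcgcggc
MEF2A, chr15:99565734-99565983, plus strand: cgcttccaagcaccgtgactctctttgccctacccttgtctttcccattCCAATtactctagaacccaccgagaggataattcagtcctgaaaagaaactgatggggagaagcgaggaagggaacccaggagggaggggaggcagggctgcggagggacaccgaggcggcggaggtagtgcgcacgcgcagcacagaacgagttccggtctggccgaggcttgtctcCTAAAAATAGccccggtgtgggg
MEF2B, chr19:19170264-19170513, minus strand: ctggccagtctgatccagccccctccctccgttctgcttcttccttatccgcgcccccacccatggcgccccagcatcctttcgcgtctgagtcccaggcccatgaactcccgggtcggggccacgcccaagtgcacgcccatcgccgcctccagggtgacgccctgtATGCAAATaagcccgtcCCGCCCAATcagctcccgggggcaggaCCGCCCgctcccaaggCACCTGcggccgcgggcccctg
MEF2C, chr5:88883185-88883434, minus strand: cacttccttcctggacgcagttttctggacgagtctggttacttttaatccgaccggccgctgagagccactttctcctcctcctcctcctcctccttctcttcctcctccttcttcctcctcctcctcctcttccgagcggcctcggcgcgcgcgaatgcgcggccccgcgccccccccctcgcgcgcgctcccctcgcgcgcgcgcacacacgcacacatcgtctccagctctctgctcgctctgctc

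The windows held different motifs, all of which were chosen after the sequences had been seen. The outer MEF2A start had 7 matches to the GC box (GGGCGG), a motif of 42.6% of the 35116 RefSeq start regions of this length, and a match to the E-box of E proteins (CAGGTG, 17.5%). The middle MEF2A start had a match to the MEF2 consensus itself at -23, a motif of 0.515% of start regions. It also had a CCAAT box (CCAAT, 32.0%) at -201. The innermost MEF2A start, whose window is not shown, had 4 GC boxes and a CCAAT box. The MEF2B window held the octamer of POU factors (ATGCAAAT), found in 1.63% of start regions, at -82. It also held GC boxes at -65 and -38, a CCAAT box at -61 that overlaps the first of them, and an E-box of E proteins at -22. The MEF2C window held none of these, nor a TATA box (TATAAA, 10.7%), an ETS motif (CCGGAAG, 8.52%), an E-box of the form CACGTG (6.34%) or an AP-1 motif (TGANTCA, 6.57%). These are matches of letters and say nothing of binding.

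Over the 3 times, 10 of the 49 peaks were called lower in GFP low and 8 were called higher, and 31 were not called. These shares of 20.4% and 16.3% compare with 25.4% lower and 13.4% higher over the full set of 71318 peaks (quasi-likelihood test of edgeR, time as a term, Benjamini-Hochberg adjusted p under 0.05). The share of called peaks at the MEF2 loci was thus near the background. In such bulk libraries, a region open in fewer cells and a region less open in each cell cannot be told apart. The median log2 change was 0.11 at the MEF2 loci and 0.03 over all peaks, whose median levels differed, at 15.8 and 7.59 CPM. The change rose with level, to a median over all peaks of 0.06 at about 16.9 CPM and 0.20 at about 43.5 CPM. The levels of the GFP libraries did not overlap in 10 MEF2 peaks lower in GFP low and 15 higher ones, against 25.1% and 20.8% of all peaks. Of the 10 MEF2 peaks with an annotated start or a gene end within 1 kb, 0 were called lower and 3 higher, where the shares over all such peaks were 4.96% and 33.6%. At an unadjusted p under 0.05, edgeR and DESeq2 each had 0 of these 10 lower. Of the 39 others, 10 were called lower and 5 higher, where the shares over all such peaks were 31.1% and 7.87%. Nothing particular to the MEF2 loci is read from these counts, and the falls include peaks 2.14 kb from a MEF2D start and 4.13 kb from a MEF2C start. The lower peaks were weak and the higher ones strong, with a median level of 8.29 CPM for the 10 falls and 32.8 CPM for the 8 rises. Over all peaks the same medians were 6.48 CPM for falls and 26.7 CPM for rises.

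**Figure D1:**
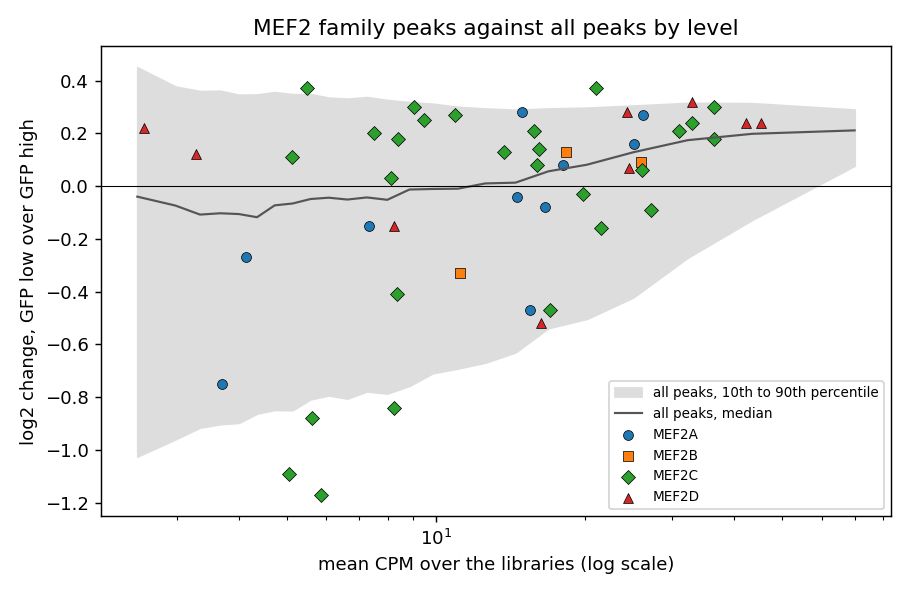
Log2 change (GFP low over GFP high) of each MEF2 family peak against its mean CPM over the 6 libraries on a log axis, with 1 point a peak, a colour and shape for each gene, and the median and the 10th to 90th percentile of all peaks of like level in grey. Of the 49 peaks, 42 lie within the grey band of their level, 3 above it and 4 below it, and the lowest points are MEF2C peaks at -1.17 and -1.09.

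The deepest falls lay far upstream of MEF2C. An adjacent pair of peaks at chr5:88952373-88952873 and chr5:88952941-88953441 lies 48.5 and 49.1 kb upstream of the outermost MEF2C start, within the span of the long noncoding gene MEF2C-AS1. A start of that gene lies in the same peak as the MEF2C start whose sequence is shown. The nearer peak of the pair had 3.73, 4.2 and 2.95 CPM in GFP low at 24, 48 and 72 h, against 7.48, 8.41 and 8.44 CPM in GFP high. Each GFP low library was below each GFP high library. This is a log2 change of -1.17 ± 0.16 (± SE, as for every log2 change, edgeR adjusted p = 4.77e-06). The farther peak had 2.67, 3.91 and 3.09 CPM in GFP low at 24, 48 and 72 h, against 6.32, 6.68 and 7.59 CPM in GFP high, again without overlap. Its log2 change was -1.09 ± 0.17 (edgeR adjusted p = 2.15e-05). The pair lies near the limit of 50 kb for membership. Just inside it at the other end of MEF2C, a peak 49.9 kb away had 9.97 ± 0.559 CPM in GFP low and 8.09 ± 0.704 CPM in GFP high (SD, n = 3 times). Just outside it, a peak 50.5 kb from MEF2C had 6.31 ± 0.560 CPM in GFP low and 4.71 ± 0.223 CPM in GFP high, and another 57.5 kb away had 3.9 ± 0.351 CPM in GFP low and 7.80 ± 0.265 CPM in GFP high.

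Inside MEF2C, 4 further peaks fell. At the whole locus, 6 of 27 peaks were called lower and 3 higher, or 22.2% and 11.1%, against 25.4% and 13.4% of all peaks. The peak at chr5:88813705-88814205, 9.97 kb downstream of an internal start, had 3.18, 3.98 and 4.72 CPM in GFP low at 24, 48 and 72 h, against 6.15, 7.25 and 8.48 CPM in GFP high. The libraries did not overlap and were higher at later times in both GFP levels. Its log2 change was -0.88 ± 0.15 (edgeR adjusted p = 7.65e-05). The peak at chr5:88746513-88747013, toward the 3′ part of the gene, had 5.08, 5.62 and 7.03 CPM in GFP low at 24, 48 and 72 h, against 11.1, 9.93 and 10.7 CPM in GFP high. Its log2 change was -0.84 ± 0.14 (edgeR adjusted p = 4.17e-05). The remaining falls were smaller, at -0.47 ± 0.11 for chr5:88732074-88732574 and -0.41 ± 0.13 for chr5:88819545-88820045 (edgeR adjusted p = 0.00187 and 0.015). Both of these calls were lost without the 72 h pair of libraries (edgeR adjusted p = 0.0619 and 0.0952), and the smaller one also with DESeq2 (adjusted p = 0.0902). The 4 deepest MEF2C falls kept their calls under all 11 other settings tried (scaling, tool, filter, reading of columns or a pair of libraries left out) and with each of the 18 columns left out. Some of these could hardly remove a call. Other filters called 18114 and 18125 of all peaks lower, against 18125, and fits on 18 columns called 20954 and 20865. Columns of a group differed by a near constant 1.78 to 1.81 times the counting variance. Leaving 1 out is therefore a weak check. The same limit holds for the calls kept at MEF2D and MEF2A.

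None of the 3 peaks that hold a MEF2C start was called, and 2 called rises lay upstream of such starts. The peak at chr5:88889243-88889743, 4.96 kb upstream of a start, had 42.6, 40.6 and 37.5 CPM in GFP low at 24, 48 and 72 h, against 33.2, 32.4 and 32.4 CPM in GFP high. All GFP low libraries stood above all GFP high libraries, and the log2 change was 0.30 ± 0.08 (edgeR adjusted p = 0.00726). The peak at chr5:88883533-88884033, 0.599 kb upstream of the start whose sequence is shown, had 36.8, 34.3 and 35.6 CPM in GFP low, against 28.0, 30.1 and 32.0 CPM in GFP high. Its log2 change was 0.24 ± 0.09 (edgeR adjusted p = 0.0353). The peak that holds that start and the MEF2C-AS1 start, chr5:88882929-88883429, had 33.3 ± 1.26 CPM in GFP low and 28.8 ± 0.733 CPM in GFP high (SD, n = 3 times) and did not pass the test (0.21 ± 0.09, edgeR adjusted p = 0.0714). The other starts in peaks, in chr5:88884080-88884580 and chr5:88826851-88827351, stood at 0.06 ± 0.10 and -0.16 ± 0.11 (edgeR adjusted p = 0.625 and 0.233). A further rise lay in the 3′ part of the gene, next to the fall at chr5:88732074-88732574. This peak, chr5:88729287-88729787, had 22.3, 24.6 and 24.1 CPM in GFP low at 24, 48 and 72 h, against 18.2, 17.9 and 19.0 CPM in GFP high, and its log2 change was 0.37 ± 0.11 (edgeR adjusted p = 0.00825). Without the 72 h pair of libraries, 2503 of all peaks were called higher, against 9570 with it. All 3 rises lost their calls without that pair (edgeR adjusted p = 0.0691, 0.163 and 0.107, in the order given here). The rises near the starts lost them with loess scaling too (0.081 and 0.192), the second of them also with DESeq2 (adjusted p = 0.0872) and without the 24 h pair (edgeR adjusted p = 0.0829), and the rise in the 3′ part also without the 48 h pair (edgeR adjusted p = 0.0523).

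**Figure D2:**
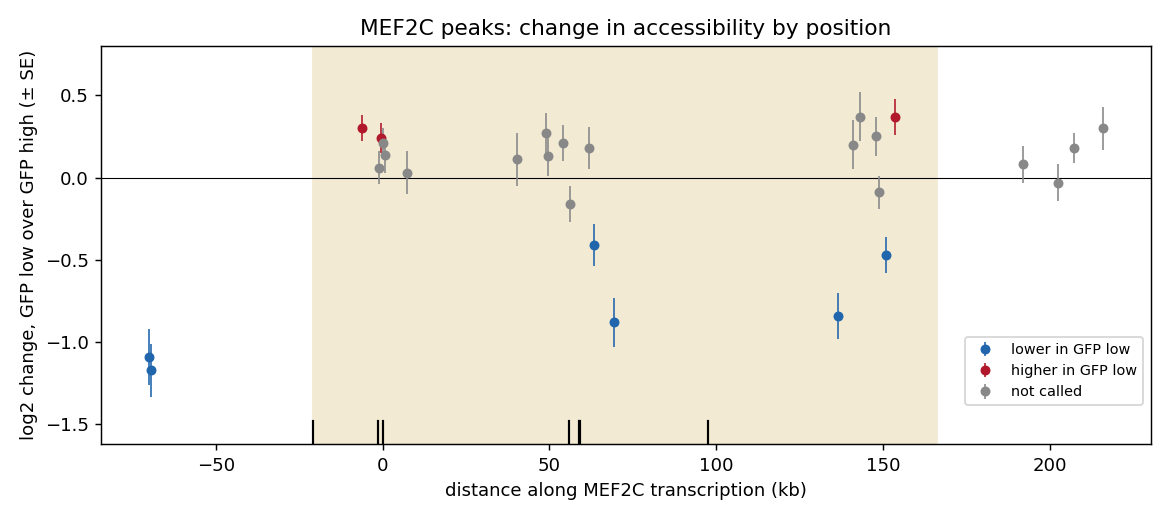
Log2 change (GFP low over GFP high, bars ± SE) of the 27 MEF2C peaks against the distance in kb of their centres from the start whose sequence is shown, in the direction of transcription, with the gene shaded and the 7 annotated starts as black ticks. Peaks called lower lie far upstream, in the middle and in the 3′ part of the gene, at -0.41 to -1.17, while the peaks nearest the start at 0 are higher or not called.

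Downstream of MEF2C, 4 peaks were not called, at log2 changes of -0.03 to 0.30. The strongest of them, chr5:88675696-88676196, lies 41.2 kb beyond the gene and had 38.7 ± 3.25 CPM in GFP low and 34.1 ± 1.61 CPM in GFP high (SD, n = 3 times, edgeR adjusted p = 0.105). The peak at chr5:88690882-88691382 holds the start of MIR9-2HG, the host gene of a miR-9 precursor, and stood at 0.08 ± 0.11 (edgeR adjusted p = 0.59).

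At MEF2D, 4 of 9 peaks were called higher and 1 lower, where the shares over all peaks were 13.4% higher and 25.4% lower. Over all peaks with a start or gene end the shares were 33.6% and 4.96%, and over all others 7.87% and 31.1%. MEF2D had 2 peaks at a gene end, each called higher. The peaks at its upstream gene end, chr1:156500675-156501175 and chr1:156501188-156501688, stood close together. The first had 53.7, 46.0 and 47.5 CPM in GFP low at 24, 48 and 72 h, against 39.7, 43.3 and 41.7 CPM in GFP high, and its log2 change was 0.24 ± 0.08 (edgeR adjusted p = 0.0225). The second had 40.7, 32.7 and 35.9 CPM in GFP low, against 29.5, 29.5 and 28.2 CPM in GFP high, and its log2 change was 0.32 ± 0.09 (edgeR adjusted p = 0.00813). In both peaks the GFP levels did not overlap. A peak 4.24 kb upstream, chr1:156504765-156505265, had 29.5, 24.6 and 25.9 CPM in GFP low, against 19.7, 24.3 and 21.9 CPM in GFP high (0.28 ± 0.11, edgeR adjusted p = 0.0482). The rise at chr1:156457071-156457571, 6.41 kb beyond the downstream end of MEF2D, rested on levels that overlapped, at 50.8, 40.5 and 46.5 CPM in GFP low against 34.6, 39.4 and 42.3 CPM in GFP high (0.24 ± 0.09, edgeR adjusted p = 0.0363). All 4 rises were lost without the 72 h pair of libraries (edgeR adjusted p = 0.107 to 0.201), at log2 changes of 0.26 to 0.31. Leaving out that pair cut the peaks called higher over all peaks from 9570 to 2503. The rises other than the peak at 0.32 were also lost without the 24 h pair, with DESeq2 and with loess scaling.

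The fall at MEF2D lay inside the gene at chr1:156492581-156493081, 2.14 kb upstream of the listed start. It had 11.9, 12.2 and 16.2 CPM in GFP low at 24, 48 and 72 h, against 18.1, 19.4 and 20 CPM in GFP high. The GFP levels did not overlap, and the log2 change was -0.52 ± 0.11 (edgeR adjusted p = 0.00104), a call kept under all 11 other settings. The other 4 MEF2D peaks were not called, at -0.15 to 0.22. They include the weakest peaks of the family, 17.7 and 19.1 kb beyond the downstream end, where the lowest library held 43 counts.

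At MEF2A, 3 peaks cover the starts, of which 1 was called. No test between the 3 peaks was run. The window of the middle start holds the MEF2 consensus. Its peak, chr15:99565685-99566185, had 27.7, 27.0 and 31.2 CPM in GFP low at 24, 48 and 72 h, against 21.6, 23.6 and 26.1 CPM in GFP high. The GFP levels did not overlap, and the log2 change was 0.27 ± 0.10 (edgeR adjusted p = 0.0341). The peak of the outer start, chr15:99565107-99565607, had 25.6, 25 and 28.9 CPM in GFP low, against 20.3, 22.9 and 28.1 CPM in GFP high, which overlapped, and did not pass (0.16 ± 0.10, edgeR adjusted p = 0.209). The third, chr15:99566273-99566773, stood at -0.08 ± 0.11 (edgeR adjusted p = 0.57). The rise was lost without the 72 h pair (edgeR adjusted p = 0.24), with DESeq2 (0.0719) and with loess scaling (edgeR adjusted p = 0.0909). Without the 72 h pair, 2503 of all peaks were called higher, against 9570 with it.

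Of the 10 MEF2A peaks, 2 were called lower and 1 higher, against 25.4% and 13.4% of all peaks. Both falls lay in the body of the gene. The weak peak at chr15:99604803-99605303, 38.6 kb downstream of the nearest start, had 2.52, 2.28 and 3.53 CPM in GFP low at 24, 48 and 72 h, against 4.64, 4.27 and 4.98 CPM in GFP high. Its log2 change was -0.75 ± 0.19 (edgeR adjusted p = 0.00313), a call kept under all 11 other settings. The peak at chr15:99631137-99631637 had 13.5, 12.0 and 13.5 CPM in GFP low, against 17.1, 19.8 and 17.2 CPM in GFP high. Its log2 change was -0.47 ± 0.12 (edgeR adjusted p = 0.00277), and the call was lost without the 48 h pair of libraries (0.058). A peak directly before it, chr15:99630522-99631022, stood at -0.15 ± 0.13 (edgeR adjusted p = 0.388). Outside the limit of 50 kb for membership, peaks 53.3 to 63.1 kb from MEF2A stood at 0.09 ± 0.09, -0.47 ± 0.12, 0.00 ± 0.11, 0.05 ± 0.11, -0.31 ± 0.12 and -0.84 ± 0.11, in order of distance. The last of these, at chr15:99502044-99502544, had 16.1 ± 2.16 CPM in GFP low and 28.5 ± 0.544 CPM in GFP high (SD, n = 3 times).

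MEF2B, the smallest of the loci, had 3 peaks, of which 1 was called lower and 0 higher, against 25.4% and 13.4% of all peaks. At an unadjusted p under 0.05, edgeR and DESeq2 each also had 0 higher at MEF2B. Its start lies in chr19:19170058-19170558, which had 22.7, 16.7 and 18.1 CPM in GFP low at 24, 48 and 72 h, against 17.3, 18.2 and 16.6 CPM in GFP high. These overlapped, and the peak did not pass (0.13 ± 0.12, edgeR adjusted p = 0.384). The fall lay inside the gene at chr19:19160428-19160928, with 12.6, 7.82 and 9.68 CPM in GFP low, against 12.9, 11.7 and 12.8 CPM in GFP high. The GFP levels overlapped through the 24 h library of GFP low, the log2 change was -0.33 ± 0.13 (edgeR adjusted p = 0.0399), and the call was lost with DESeq2, with loess scaling and without the 48 h or the 72 h pair (edgeR adjusted p = 0.295 and 0.213). The strongest peak, chr19:19155348-19155848, stood at 0.09 ± 0.10 (edgeR adjusted p = 0.473). RefSeq also lists readthrough transcripts from the neighbouring gene BORCS8 into MEF2B. Their start is shared with BORCS8 and RFXANK and lies in chr19:19191974-19192474, which was assigned to RFXANK and stood at 0.14 ± 0.12 (edgeR adjusted p = 0.373).

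**Figure D3:**
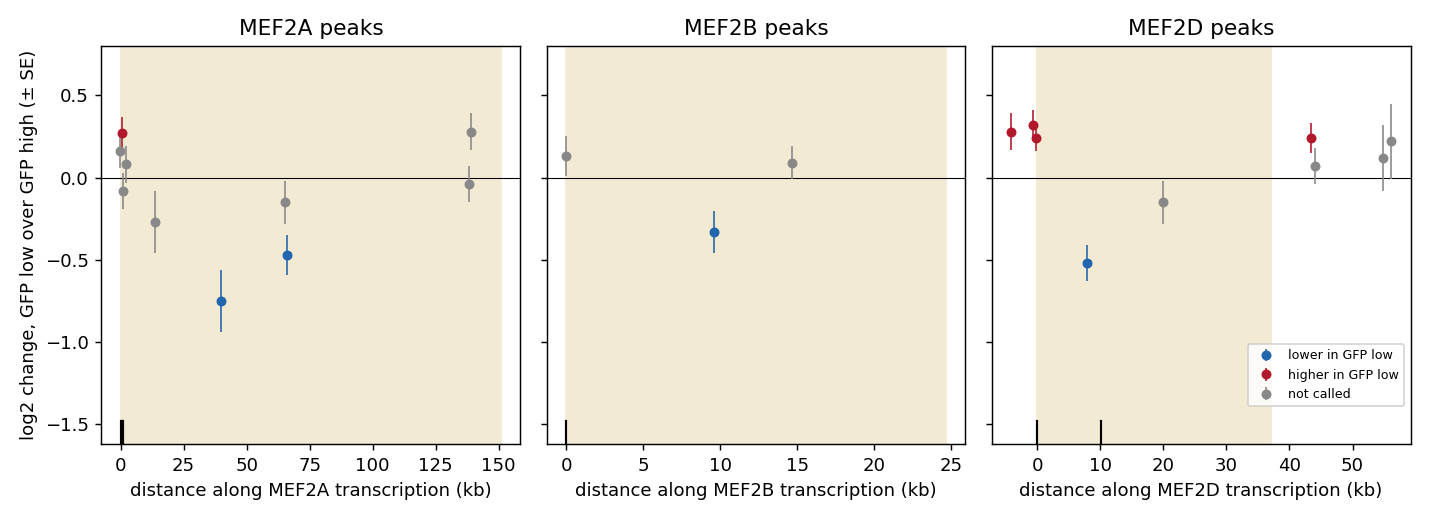
Log2 change (GFP low over GFP high, bars ± SE) of the MEF2A, MEF2B and MEF2D peaks against the distance in kb of their centres from the 5′ end of the gene, in the direction of transcription, with the gene shaded and annotated starts and that 5′ end as black ticks. The lower peaks, at -0.33 to -0.75, lie inside the genes, and the MEF2D peaks at its 5′ end are all higher.

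**Figure D4:**
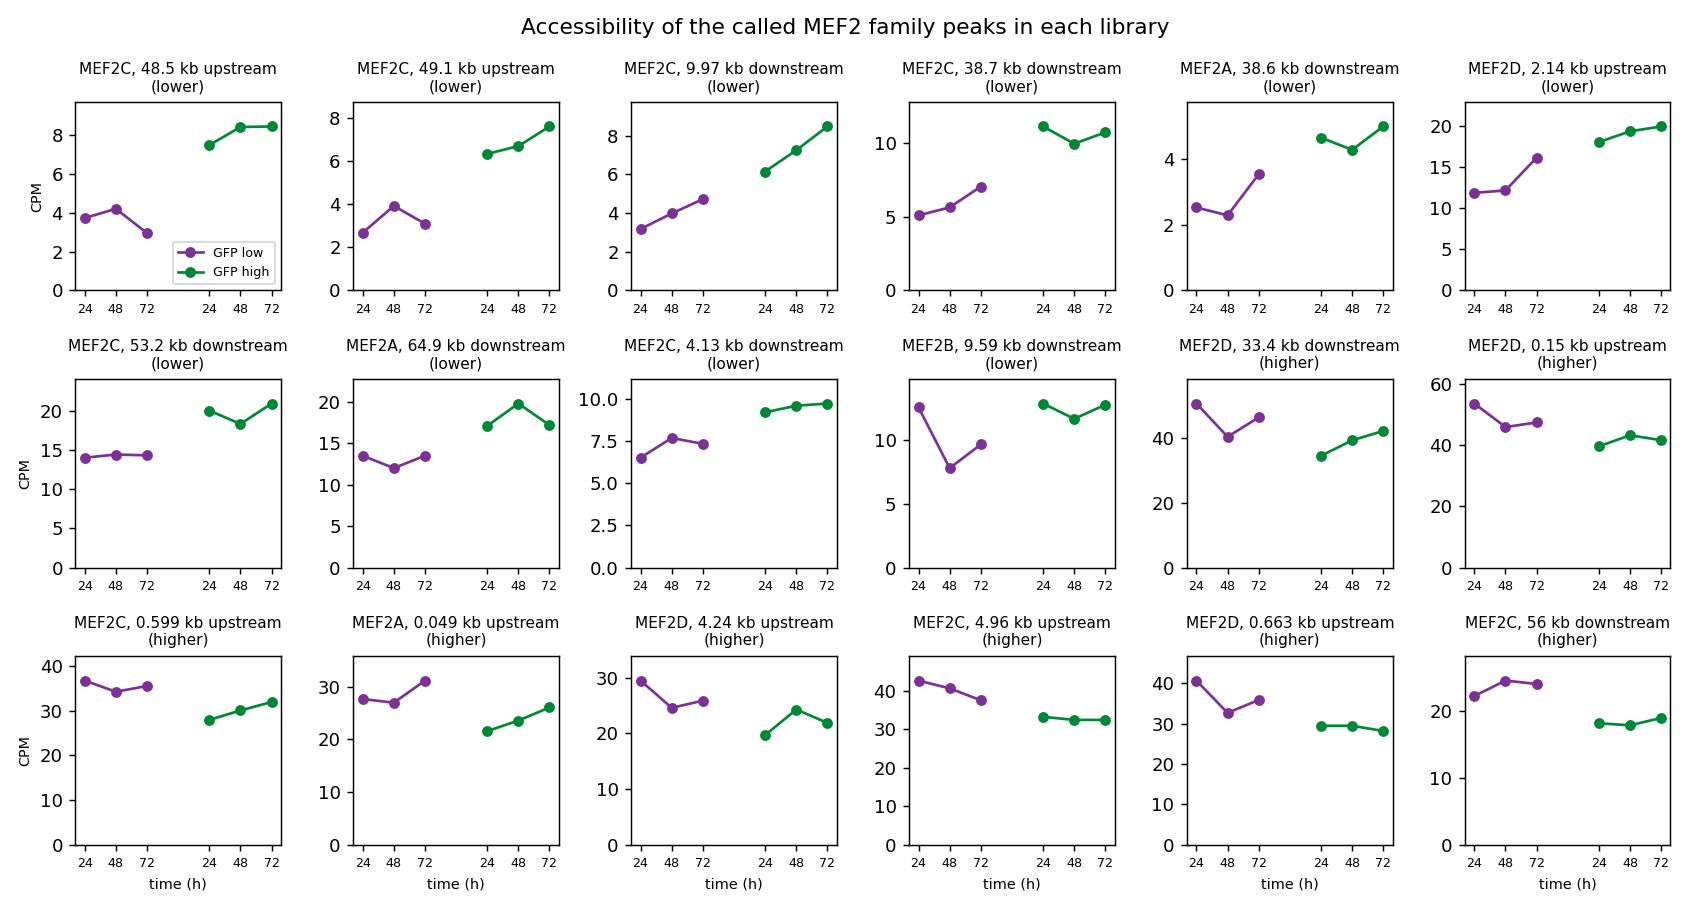
CPM (axes from 0) of the 18 called MEF2 family peaks in each library, GFP low left of GFP high and 24, 48 and 72 h within each, titled by gene and distance from the nearest annotated start or 5′ gene end. The GFP levels overlap in the MEF2B peak and in the MEF2D peak 33.4 kb downstream, and not in the other 16.

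Each locus was also read as 1 value, the sum over its peaks, in a fit over 14758 genes that called 14.8% lower and 2.85% higher. None of the 4 sums passed. MEF2A had 158.7 ± 10.8 CPM in GFP low and 165.3 ± 11.4 CPM in GFP high (SD, n = 3 times), a log2 change of -0.06 (95% interval -0.16 to 0.05, edgeR adjusted p = 0.466). MEF2B had 60.4 ± 4.03 CPM in GFP low and 62.5 ± 3.73 CPM in GFP high, a log2 change of -0.05 (-0.19 to 0.08, edgeR adjusted p = 0.632). MEF2C had 471.1 ± 14.0 CPM in GFP low and 477.8 ± 9.87 CPM in GFP high, a log2 change of -0.02 (-0.12 to 0.08, edgeR adjusted p = 0.801). MEF2D had 227.5 ± 17.6 CPM in GFP low and 214.4 ± 6.47 CPM in GFP high, a log2 change of 0.08 (-0.04 to 0.20, edgeR adjusted p = 0.356). Without peaks at gene ends, the log2 change came to -0.17 for MEF2A and 0.01 for MEF2D, and neither was called (edgeR adjusted p = 0.0621 and 0.929). These sums were scaled among sums of genes. With the scaling of the fit on peaks, an alternative chosen after seeing the data, the median of all genes stood at 0.10 in place of 0.02. The log2 changes then came to 0.02 for MEF2A, 0.02 for MEF2B, 0.06 for MEF2C and 0.16 for MEF2D, so the sign for the first 3 rests on the scaling, and none was called (edgeR adjusted p = 0.811, 0.822, 0.234 and 0.0611).

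At single times 1 library stood for each GFP level, so there was no test, and the intervals given are 95% counting intervals for those libraries, widened by the spread between columns. At 24 h, 2 of the 49 peaks were at least 2-fold lower in GFP low, against 8.16% of all peaks. These were chr5:88952941-88953441 at a log2 difference of -1.22 (-1.76 to -0.68) and chr5:88746513-88747013 at -1.11 (-1.51 to -0.71), both at MEF2C. At 48 h none reached 2-fold, against 3.85% of all peaks, and the lowest was chr5:88952373-88952873 at -0.99 (-1.41 to -0.57). At 72 h this peak stood at -1.49 (-1.97 to -1.01) and its neighbour at -1.28 (-1.76 to -0.79), which made 2 of the 49, against 3.83% of all peaks. No MEF2 peak was at least 2-fold higher at any time, where 0.212%, 0.226% and 0.0911% of all peaks were at 24, 48 and 72 h.

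Differences at single times are given next for some peaks, most of them named because their difference changed most between 24 and 72 h. Whether a difference changed with time was not tested. The 4 MEF2D rises had median log2 differences of 0.51, 0.06 and 0.22 at 24, 48 and 72 h, and the rise beyond its downstream end stood at 0.55 (0.38 to 0.72), 0.04 (-0.12 to 0.20) and 0.14 (-0.02 to 0.29). Its neighbour chr1:156456520-156457020, not called over the times, stood at 0.41 (0.20 to 0.62) at 24 h and -0.19 (-0.41 to 0.02) at 72 h. The MEF2B fall stood at -0.03 (-0.33 to 0.27) at 24 h, -0.58 (-0.91 to -0.25) at 48 h and -0.40 (-0.71 to -0.09) at 72 h. At MEF2C, the fall at chr5:88746513-88747013 stood at -1.11 (-1.51 to -0.71), -0.81 (-1.19 to -0.44) and -0.60 (-0.96 to -0.25) at 24, 48 and 72 h. Its intervals at 24 and 72 h overlap. Among peaks not called over the times, the weak MEF2A peak at chr15:99578740-99579240 stood at -0.31 (-0.82 to 0.20), -0.71 (-1.23 to -0.20) and 0.23 (-0.29 to 0.75) at these times. The MEF2A peak at chr15:99703570-99704070 stood at 0.11 (-0.18 to 0.41), -0.11 (-0.37 to 0.16) and -0.12 (-0.38 to 0.14). The MEF2C peak at chr5:88842732-88843232 stood at -0.27 (-0.75 to 0.22), 0.33 (-0.11 to 0.77) and 0.22 (-0.23 to 0.68). The intervals of these 3 peaks at 24 and 72 h include 0. Medians over all peaks at these times were 0.01, -0.01 and 0.00. They were 0.40, 0.25 and 0.29 over all peaks called higher, and -0.79, -0.60 and -0.62 over all called lower. Peaks with a start or gene end stood at 0.25, 0.07 and 0.17. A smaller rise at 48 h than at 24 h is thus not particular to MEF2D.

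Within a GFP level, no MEF2 peak changed at least 2-fold between 72 and 24 h. The shares over all peaks were 1.09% lower and 0.632% higher at 72 h in GFP low, and 0.599% lower and 0.0841% higher in GFP high. The MEF2C peak at chr5:88741894-88742394 came closest. It had 11.1, 7.68 and 5.6 CPM in GFP low at 24, 48 and 72 h, against 7.70, 6.27 and 6.67 CPM in GFP high. Its log2 difference of 72 h from 24 h was -0.97 (-1.34 to -0.61) in GFP low and -0.20 (-0.61 to 0.20) in GFP high, and over the times it was not called between GFP levels (0.20 ± 0.15, edgeR adjusted p = 0.275). At the outer MEF2A start the same difference was 0.17 (-0.02 to 0.37) in GFP low and 0.47 (0.24 to 0.69) in GFP high. The difference between the GFP levels in these changes was not tested.

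The genes whose summed peaks had the most similar course over the 6 libraries were found by the root mean square difference of centred log2 CPM among 6988 genes with at least 3 peaks and 500 counts in each library. For MEF2A they were HOMER2 (0.0126), OR2V2 (0.0194) and ZNF281 (0.0207), where the median gene stood at 0.13. For MEF2B they were ATP9A (0.0157), LIMS1 (0.0249) and TM7SF3 (0.0278), with a median of 0.127. For MEF2C they were ATP6V1C1 (0.015), QKI (0.0171) and UQCRB (0.0184), with a median of 0.102. For MEF2D they were KDM3A (0.0133), ANXA7 (0.0143) and CNBP (0.0187), with a median of 0.126. Among themselves the MEF2 genes had values from 0.0786 for MEF2B and MEF2C to 0.153 for MEF2A and MEF2B, around these medians. The points share 6 libraries, and such likeness is a description.

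Genes that act with MEF2 had called peaks in both directions, and over all peaks the shares were 25.4% lower and 13.4% higher. Called peaks went both ways in 4 corepressor and deacetylase genes, 3 coactivator genes, 12 genes upstream of MEF2 and 5 reported targets. The peaks named from each list had its smallest p, 1 per gene, and all of them were falls. The 8 genes of corepressors and class IIa deacetylases had 99 peaks, 24 lower and 9 higher, with a median log2 change of -0.06. The falls included peaks near HDAC7 (4.81 ± 0.379 CPM in GFP low and 10.3 ± 1.23 CPM in GFP high, log2 change -1.10 ± 0.13) and inside HDAC9 (-0.87 ± 0.12) and HDAC4 (-0.76 ± 0.12), each a class IIa deacetylase. Of 9 coactivator genes, 8 had a peak, and 16 of their 61 peaks were lower and 6 higher, with a median of -0.16. Falls lay inside KAT2B, an acetyltransferase gene (-0.65 ± 0.09), near EP300, which codes for p300 (-1.14 ± 0.21), and inside ASH2L, which codes for a subunit of histone methyltransferase complexes (-0.80 ± 0.17).

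Of 24 genes of kinases, calmodulin and calcineurin upstream of MEF2, 21 had a peak, and 57 of their 191 peaks were lower and 18 higher, with a median of -0.07. The falls with the smallest p lay inside SIK2 (1.58 ± 0.489 CPM in GFP low and 5.30 ± 0.573 CPM in GFP high, log2 change -1.76 ± 0.21) and SIK3 (-1.10 ± 0.15), kinases that phosphorylate class IIa deacetylases, and near CAMK2G (-1.19 ± 0.15), a subunit of a calcium-dependent kinase. Of the 97 peaks of 9 genes reported as MEF2 targets, 25 were lower and 13 higher, with a median of -0.02. Falls lay 32.0 kb from BCL6 (9.42 ± 1.11 CPM in GFP low and 18.3 ± 0.760 CPM in GFP high, log2 change -0.96 ± 0.12), a repressor of germinal centre B cells, and inside NR4A3, an orphan nuclear receptor gene (-0.76 ± 0.13). HDAC9 stands in this list too. The peaks named in these lists had edgeR adjusted p-values of 1.32e-06 to 0.000668.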

How the data were processed

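Omni-ATAC-seq was measured in 18 Raji samples, 3 for each GFP level (low, high) and time (24, 48 and 72 h). The deposited table holds raw counts per peak for 71318 peaks, not normalised. The submitters' processing notes name hg38, FastQC, BWA, deepTools and R 4.2.1. How peaks were called, whether duplicate reads were kept and whether reads were shifted for the transposase cut is not given in the sources used here, and each could change the counts. Time was read from the D number in a column's name (D1 is 24 h, D2 is 48 h, D3 is 72 h). The V number was tied to no labelled replicate. Columns held 7106939 to 11171849 counts.

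The 3 columns of each GFP level and time were summed, which left 1 library per group and 6 in all. All peaks were tested with the robust quasi-likelihood fit of edgeR 4.0.16 under R 4.3.3 (TMM factors, time and GFP level in the model, 2 residual and a median of 22.6 prior degrees of freedom, biological coefficient of variation 9.48%), with Benjamini-Hochberg adjustment at 0.05. The p-values therefore rest largely on the spread borrowed from other peaks. The same fit was run on counts summed per gene. The SE of a log2 change is its size divided by the square root of the F value of its test. The 95% intervals of sums come from this SE and the normal distribution, so they are approximate. For the MEF2C sum the SE came to 0.05 in the main fit and 0.03 with the scaling of the fit on peaks. Log2 CPM of single libraries used a prior count of 2, and the counting variance was multiplied by 1.8 in 95% intervals, which cover counting error only. On data simulated for the comparison over the times with 71318 peaks, the fit found 62 of 100 peaks with a 1.5-fold change and 99 of 100 with a 2-fold change, and made 8 false calls. The simulation gave all peaks 1 common spread, changed only these peaks and held no shift with level. Its false calls therefore do not carry over to the real counts. The MEF2 rises, at log2 changes of 0.24 to 0.37, were smaller than either simulated fold.

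Peaks were assigned to 19947 RefSeq protein-coding genes of GRCh38.p14, the assembly of hg38, after 105 readthrough genes had been left out, and 59535 peaks had a gene. Start sites and sequences are RefSeq's. Members, gene lists, tests and the rule for peaks described one by one (peaks within 1 kb of a gene end, per gene the 4 smallest p in each direction, the 2 highest levels and the 2 largest changes of the GFP difference between 24 and 72 h in each direction at a mean count of at least 100, and 3 per list) were chosen with earlier results of these data known. Some peaks outside that rule were named after their values had been seen. Alternatives were DESeq2 1.42.0, its size factors, loess scaling (limma 3.58.1, span 0.3), other filters and gene distances, columns or pairs of libraries left out, fits on 18 columns and V numbers read as time.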

Additional observations from a re-analysis of the deposited data

How the results depend on the processing

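The count of MEF2 peaks called lower, 10 in the comparison over the times, kept within 1.5 times of that under the alternatives run. It came to 7 to 10 with columns or pairs of libraries left out, and to 14 with the nearest gene taken within 100 kb. The count of peaks called higher, 8, depended on the setting. It came to 3 with DESeq2, and to 17 on 18 columns and with the replicate block by V number. V numbers read as time (chosen after seeing the data) also gave 17. Counting only the 34 peaks centred inside a gene gave 4. The other 4 rises lie outside, so membership changed there and no call did. With columns or pairs left out, the count came to 0 to 11. The 0 arose without the 72 h pair, where edgeR had 8 of the 49 higher at an unadjusted p under 0.05. Loess scaling called 7 higher, of which 2 were among the 8. Of the 10 falls, 8 were kept with DESeq2, 9 with loess scaling and 10, 8 and 7 without the 24, 48 and 72 h pair. Of the 8 rises, 3 were kept with DESeq2 and 4, 7 and 0 without those pairs. With the 18 columns left out singly, calls were lost with 9 of them at the MEF2D rise 4.24 kb upstream, 6 at the MEF2B fall, 4 at the MEF2C rise 0.599 kb upstream of a start, 2 at the MEF2A rise and 1 at the MEF2D rise downstream. Over all peaks, the 9570 called higher came to 3721 with DESeq2, 19287 on 18 columns and 19083 with the block. They came to 18464 with V numbers read as time and 2503 to 9609 with columns or pairs left out. The 2503 arose without the 72 h pair. Among sums per gene, 2185 were called lower in the comparison as reported, 3709 on 18 columns, 3659 with the block, 3845 without peaks at gene ends (fewer genes and peaks tested) and 1186 to 2499 with columns or pairs left out. The 420 called higher came to 192 with DESeq2, 3550 on 18 columns, 3433 with the block, 2274 with the scaling of the fit on peaks and 12 to 1306 with columns or pairs left out. The MEF2D sum was called on 18 columns (0.09, edgeR adjusted p = 0.025) and with the block (0.09, 0.0344). At 48 h, where no MEF2 peak was 2-fold lower, 2 were with V numbers read as time. The causes were not tested. V numbers are not shown to pair samples, so the block is an alternative only. Fits on 18 columns treat columns as replicates, though their spread, 1.78 to 1.81 times the counting variance, may be technical. Of 1073 values of single named peaks under alternatives, 51 lost a call and 7 gained a call. No called peak changed sign. Among the named peaks that were not called, 2 did. These were the MEF2D peak at 156456520 (0.07) without the 24 h pair (-0.09) and the MEF2C peak at 88842732 (0.11) without the 48 h pair (-0.02). Signs of the other peaks not called were not followed. With 1 library per GFP level and time, no difference at a single time has a replicate check.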
